A study of Mus musculus with 10 samples.

Results

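Genes that build very low density lipoprotein (VLDL) and carry it out of the endoplasmic reticulum were followed in cultured mouse hepatocytes. The genes were Mttp, Apob, Sar1b, Tm6sf2, P4hb, Cideb, Surf4, Mia2, Mia3 and Pla2g12b, 10 of the 56748 genes in the deposited tables, chosen by gene symbol. Each symbol matched 1 row, and all 10 passed the filter on low counts. Primary hepatocytes of wild-type mice spent a night in medium that cultured adipocytes, themselves starved overnight, had conditioned. In the group called Mttp_KO_CM the adipocytes came from A-Mttp-/- mice, an adipose-specific knockout of Mttp, and in the group called Mttp_flox_CM from Mttpf/f mice, with 5 RNA sequencing libraries in each group. For both groups the adipocytes were grown from stromal vascular cells of the inguinal depot, taken from male mice after 6 months on an obesogenic diet, and the labels give n = 3 for the fat donors. Neither the Cre driver of the deletion, nor the age of the mice, nor the source of each hepatocyte culture is given in the sources used here. The hepatocytes carried no such deletion, so their Mttp level is no check of which medium they received.

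In hepatocytes, apolipoprotein B is made on endoplasmic reticulum ribosomes and takes up lipid in the lumen while it is still being made. The microsomal triglyceride transfer protein, encoded by Mttp, moves that lipid, and it works as a dimer with protein disulfide isomerase, encoded by P4hb. Finished precursors are too large for ordinary transport vesicles and need the GTPase SAR1B, the cargo receptor SURF4 and the large export factors MIA2 and MIA3. In humans, loss of MTTP causes abetalipoproteinaemia and loss of SAR1B causes chylomicron retention disease.

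Mttp and Sar1b rose most with knockout medium, by 50.7% and 46.75%, while the 95% interval for Apob ran from -3.85% to 3.93%. Mia2 and Surf4 rose by 14.7% and 8.71%, P4hb by 4.92%, and Pla2g12b was 11.3% lower. In all, 5 of the 10 genes were higher, 1 was lower and 4 were not called (edgeR quasi-likelihood test, Benjamini-Hochberg adjusted p under 0.05 over 14183 genes). Over all genes tested, 18.2% were called higher and 18.1% lower, or 36.4% in either direction. For 5 of the 10 genes the ranges of the groups were apart, 4 of them higher and 1 lower, as they were for 25.7% of all genes tested. The median log2 change was 0.10 over the 10 genes and 0.00 over all genes tested, and the median size of the log2 change was 0.15 and 0.14. The labels do not say whether a group's libraries stand for separate cultures or animals, and the p-values therefore rest on library-to-library spread that may be technical.

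Summed counts ran from 14283517 to 17178131 per library in Mttp_KO_CM and from 14199798 to 15950530 in Mttp_flox_CM, and the 10 genes took between 1.01% and 1.1% of them. Levels are given as CPM, counts normalised to library size with TMM factors (trimmed mean of M values). Hepatocyte markers were abundant in all libraries, with Alb, the albumin gene, at 25100 ± 594 CPM in Mttp_KO_CM and 29140 ± 507 CPM in Mttp_flox_CM (SD, n = 5), and 2 of 12 such markers rose and 10 fell. For these and the following marker counts, the shares over all genes tested were 18.2% called higher and 18.1% called lower. Markers of other liver cells were present and lower with knockout medium. All 12 endothelial markers fell, and their summed level was 1090 to 1150 CPM in Mttp_KO_CM and 1920 to 2050 CPM in Mttp_flox_CM. Kdr, a receptor gene of endothelial cells, was at 44.9 ± 2.07 CPM in Mttp_KO_CM and 122 ± 5.50 CPM in Mttp_flox_CM (SD, n = 5). Stellate cell markers fell in 8 of 10, with sums of 53.5 to 61.0 CPM in Mttp_KO_CM and 95.9 to 106 CPM in Mttp_flox_CM. Macrophage markers fell in 10 of 10, with 362 to 411 CPM in Mttp_KO_CM and 625 to 683 CPM in Mttp_flox_CM. Cholangiocyte markers fell in 3 of 6, with 314 to 382 CPM in Mttp_KO_CM and 567 to 629 CPM in Mttp_flox_CM. Spp1, which encodes osteopontin, made up 82.9% of that sum in Mttp_KO_CM and 87.5% in Mttp_flox_CM, and the other 5 summed to 54.1 to 62.6 CPM in Mttp_KO_CM and 67.2 to 78.9 CPM in Mttp_flox_CM. Of 6 adipocyte markers 1 passed the filter, Lipe, which rose, and Lep and Cfd had no count in any library. Lipe, a lipase gene, was at 20 ± 1.67 CPM in Mttp_KO_CM and 9.49 ± 0.216 CPM in Mttp_flox_CM (SD, n = 5), and the other 5 adipocyte markers together were at 0.263 to 0.828 CPM in Mttp_KO_CM and 0.0621 to 0.402 CPM in Mttp_flox_CM. In such bulk libraries fewer cells of a type and less RNA per cell cannot be told apart, and the part of other cell types in the values below was not tested.

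**Figure D1:**
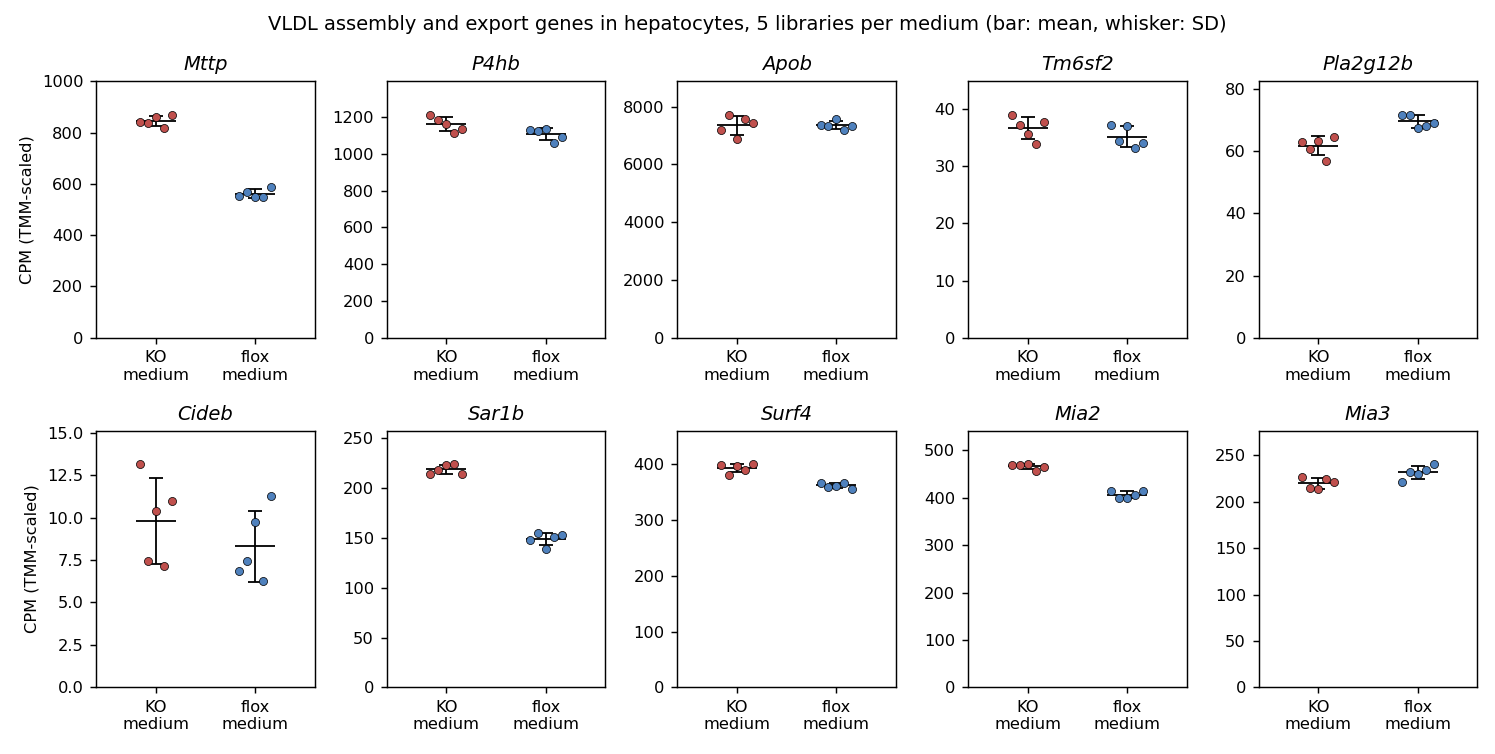
TMM-scaled CPM (vertical axes, each from 0) of the 10 genes in each library, with Mttp_KO_CM (KO medium) left of Mttp_flox_CM (flox medium). Points are libraries, bars the means and whiskers the SD of 5 libraries. The groups are apart for Mttp, Sar1b, Mia2, Surf4 and Pla2g12b, and overlap for P4hb, Apob, Tm6sf2, Cideb and Mia3.

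The promoter windows of 4 of the genes are shown to set side by side the pair that rose most, Mttp and Sar1b, the gene that held its level, Apob, and Mia2, which rose less. They come from RefSeq (build GRCm38.p6), run 5′ to 3′ from 250 bases before to 50 bases after an annotated start, and were matched by symbol. Of the 10 genes, 9 had a window, and Mia2 had 3. Capitals mark matches on either strand to GGGCGG (GC box) and CAAAGG (the core of many nuclear receptor sites) in Mttp, to CAAAGG and TATAAA (a core promoter element) in Apob, and in Mia2 to GTTAAT (a half-site of the HNF1 factors) and to a relaxed full HNF1 site, which holds that half-site, leaves the next base free and matched as GTTAATTATTAA.
Mttp, chr3:138143369-138143668, minus strand: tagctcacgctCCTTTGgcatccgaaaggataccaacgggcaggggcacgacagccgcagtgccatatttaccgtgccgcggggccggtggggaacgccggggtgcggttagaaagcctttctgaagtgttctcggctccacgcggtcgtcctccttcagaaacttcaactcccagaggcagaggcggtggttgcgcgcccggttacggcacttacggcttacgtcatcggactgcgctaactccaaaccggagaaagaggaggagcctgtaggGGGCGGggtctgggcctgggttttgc
Sar1b, chr11:51763413-51763712, plus strand: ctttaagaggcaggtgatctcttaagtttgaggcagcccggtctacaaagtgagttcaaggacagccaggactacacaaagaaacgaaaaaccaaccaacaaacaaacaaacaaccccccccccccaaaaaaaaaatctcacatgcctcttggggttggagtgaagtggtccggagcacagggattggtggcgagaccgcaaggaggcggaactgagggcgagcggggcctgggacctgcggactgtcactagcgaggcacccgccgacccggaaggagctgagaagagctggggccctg
Apob, chr12:7977427-7977726, plus strand: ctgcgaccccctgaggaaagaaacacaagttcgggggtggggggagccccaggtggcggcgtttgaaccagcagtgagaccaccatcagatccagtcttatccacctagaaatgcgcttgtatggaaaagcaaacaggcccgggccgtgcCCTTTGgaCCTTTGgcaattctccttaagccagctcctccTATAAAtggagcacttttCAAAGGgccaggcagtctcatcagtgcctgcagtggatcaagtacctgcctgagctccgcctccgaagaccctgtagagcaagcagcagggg
Mia2, first window, chr12:59095341-59095640, plus strand: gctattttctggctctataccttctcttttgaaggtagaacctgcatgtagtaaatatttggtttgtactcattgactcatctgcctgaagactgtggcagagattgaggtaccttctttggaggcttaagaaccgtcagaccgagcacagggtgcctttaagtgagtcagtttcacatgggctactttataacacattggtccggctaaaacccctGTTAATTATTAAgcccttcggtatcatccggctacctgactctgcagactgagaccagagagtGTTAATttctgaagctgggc

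None of the motifs searched was found in the Sar1b window, and the first Mia2 window also held TATAAA on the opposite strand, left in lower case. The same search covered AGGTCA (a nuclear receptor half-site), 2 copies of it with 1 base between them (the direct repeat bound by PPAR, RXR and HNF4 receptors), the same repeat with any base in place of each T, an HNF4 core and the full HNF1 site, which is the relaxed one with a C added at its end. None of these 5 was found in any window of the 10 genes. Of 32851 windows in the table, 0.0396% held the direct repeat, 0.381% its relaxed form, 16.3% AGGTCA, 0.475% the HNF4 core and 0.00913% the full HNF1 site. The relaxed HNF1 site of the first Mia2 window was in 0.0609% of windows and GTTAAT in 7.1%. Apob held CAAAGG at 3 places, and 20.3% of windows held it at least once, while TATAAA was in 13.6% and GGGCGG in 35.7%. Among the windows not shown, CAAAGG was in that of Pla2g12b and TATAAA in that of Cideb. GGGCGG was in those of P4hb, Cideb, Surf4 and Mia3, so these motifs are not particular to the genes shown. The Mttp window lies at the upstream of the 2 annotated protein-coding starts (GENCODE M21, GRCm38). The other Mttp start lies 12041 bases downstream of the start used for the window and has no window here. A match is a run of letters and not a bound site, and the libraries do not show which start was used.

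Mttp encodes the lipid transfer subunit itself (ENSMUSG00000028158, GRCm39 chromosome 3 from 137795615 to 137850729, minus strand). In Mttp_KO_CM, Mttp had 841, 839, 861 and 819 CPM in replicates 1 to 4 and 871 CPM in the library without a number. In Mttp_flox_CM, the corresponding values were 554, 567, 550, 547 and 589 CPM. The lowest Mttp_KO_CM library was thus well above the highest Mttp_flox_CM library, and the coefficient of variation was 2.37% in Mttp_KO_CM and 3.04% in Mttp_flox_CM. The log2 change was 0.59 (SE 0.026, 95% interval 0.54 to 0.65, edgeR adjusted p = 3.0e-15), or 1.51-fold. Of all genes tested, 2.69% had a larger fitted rise. Trmt10a, a tRNA methyltransferase gene on the opposite strand, overlaps Mttp by 1521 bases. It was at 22.6 ± 1.76 CPM in Mttp_KO_CM and 17.6 ± 1.47 CPM in Mttp_flox_CM (SD, n = 5), far below Mttp. Trmt10a rose too (log2 0.36, SE 0.07, edgeR adjusted p = 2e-04), and with no strand setting given, reads in the overlap cannot be told apart.

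P4hb encodes the protein disulfide isomerase that holds MTTP in the lumen and also folds other secreted proteins (ENSMUSG00000025130, chromosome 11 from 120451124 to 120464079, minus strand). In Mttp_KO_CM, P4hb had 1213, 1184, 1160 and 1115 CPM in replicates 1 to 4 and 1136 CPM in the library without a number. The Mttp_flox_CM libraries had 1129, 1126, 1132, 1059 and 1090 CPM. The groups overlapped, with 4 of 5 Mttp_KO_CM libraries above every Mttp_flox_CM library. The log2 change of 0.07 (SE 0.027, 95% interval 0.01 to 0.12, edgeR adjusted p = 0.046) just passed the threshold. The call was lost under 14 of 21 alternative settings, among them without any of the 5 Mttp_flox_CM libraries in turn and without Mttp_KO_CM replicate 1 or 2 (log2 0.05 to 0.07). It was also lost with library size alone (log2 0.03, adjusted p = 0.40), and adjusted p ran from 0.024 to 0.40 over all alternatives. The 2 subunits of the transfer complex had separate intervals for their changes, 0.54 to 0.65 for Mttp and 0.01 to 0.12 for P4hb.

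Apob encodes the backbone of the particle (ENSMUSG00000020609, chromosome 12 from 8027648 to 8066835, plus strand). In Mttp_KO_CM, Apob had 7182, 7725, 6878 and 7566 CPM in replicates 1 to 4 and 7426 CPM in the library without a number. Values in Mttp_flox_CM were 7368, 7328, 7568, 7186 and 7340 CPM. Libraries of Mttp_KO_CM lay on both sides of the Mttp_flox_CM range, 2 below it and 1 above it. The log2 change was 0.00 (SE 0.027, edgeR adjusted p = 0.99), and its 95% interval was -0.06 to 0.06. Apob varied more among Mttp_KO_CM libraries, with a coefficient of variation of 4.53%, against 1.86% in Mttp_flox_CM, and that difference in spread was not tested.

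**Figure D2:**
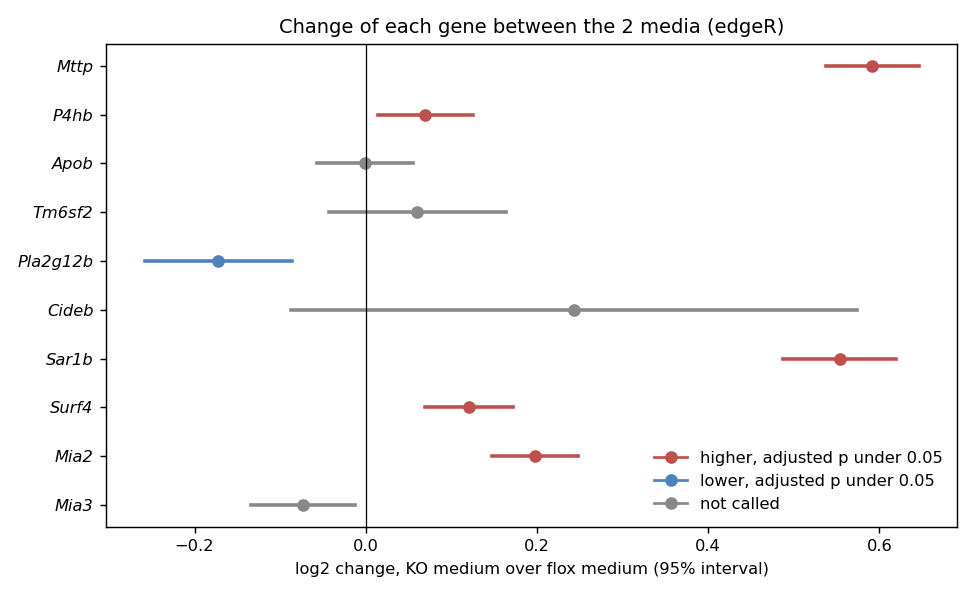
Fitted log2 change of each gene, Mttp_KO_CM over Mttp_flox_CM (points), with its 95% interval (lines), coloured by the call at an adjusted p of 0.05 in edgeR. The intervals of Mttp (0.54 to 0.65) and Sar1b (0.49 to 0.62) lie to the right of all others except the wide one of Cideb.

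Pla2g12b, Tm6sf2 and Cideb encode proteins that act on lipid loading of the particle in the endoplasmic reticulum. Pla2g12b encodes a secreted phospholipase relative without enzyme activity that helps enlarge the particle (ENSMUSG00000009646, chromosome 10 from 59239482 to 59257798, plus strand). In Mttp_KO_CM, Pla2g12b had 63.1, 60.7, 63.4 and 57.0 CPM in replicates 1 to 4 and 64.6 CPM in the library without a number. The Mttp_flox_CM values were 71.8, 71.5, 67.3, 68.1 and 69.2 CPM. Every Mttp_KO_CM library was below every Mttp_flox_CM library. The log2 change was -0.17 (SE 0.042, 95% interval -0.26 to -0.09, edgeR adjusted p = 0.0019), and Pla2g12b was the only one of the 10 genes called lower.

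Tm6sf2, a membrane protein gene whose human variants raise liver fat (ENSMUSG00000036151, chromosome 8 from 70525574 to 70532716, plus strand), was not called. It had 33.95 to 39.0 CPM over the Mttp_KO_CM libraries and 33.1 to 37.2 CPM over the Mttp_flox_CM libraries. The means were 36.7 ± 1.97 CPM in Mttp_KO_CM and 35.2 ± 1.87 CPM in Mttp_flox_CM (SD, n = 5). The 95% interval of the Tm6sf2 change ran from -2.96% to 12.05% (log2 0.06, SE 0.050, edgeR adjusted p = 0.38).

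Cideb encodes a lipid droplet protein that aids the loading of triglyceride onto the particle (ENSMUSG00000022219, chromosome 14 from 55991507 to 55995915, minus strand). It was the lowest and most variable of the 10 genes. In Mttp_KO_CM, Cideb had 200, 106, 176 and 112 counts in replicates 1 to 4 and 154 in the library without a number, or 13.1, 7.44, 10.4, 7.14 and 11.0 CPM. Levels in Mttp_flox_CM were 98, 111, 157, 101 and 165 counts, or 6.84, 7.43, 9.74, 6.27 and 11.3 CPM. In each group the libraries were spread over nearly the same range, with coefficients of variation of 25.8% and 25.4%. The log2 change of 0.24 (SE 0.16, edgeR adjusted p = 0.26) had a 95% interval from -5.88% to 48.85%, which takes in a rise as large as that of Sar1b. Nop9, a gene for a ribosome assembly factor on the opposite strand, overlaps Cideb by 1451 bases and was several times higher, at 50.9 ± 3.17 CPM in Mttp_KO_CM and 44.4 ± 2.98 CPM in Mttp_flox_CM. Nop9 rose (log2 0.20, SE 0.051, edgeR adjusted p = 0.0032), and since no strand setting is given, reads of the pair cannot be told apart where they overlap.

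Sar1b encodes the GTPase that starts the coat of export vesicles (ENSMUSG00000020386, chromosome 11 from 51654514 to 51682752, plus strand). In Mttp_KO_CM, Sar1b had 214, 218, 223 and 224 CPM in replicates 1 to 4 and 214 CPM in the library without a number. Corresponding Mttp_flox_CM values were 148, 155, 139, 151 and 153 CPM. The groups were wide apart, and the log2 change was 0.55 (SE 0.032, 95% interval 0.49 to 0.62, edgeR adjusted p = 4.6e-13), or 1.47-fold. Of all genes tested, 3.08% had a larger fitted rise. Its paralogue Sar1a had 133 ± 7.83 CPM in Mttp_KO_CM and 130 ± 4.75 CPM in Mttp_flox_CM (SD, n = 5), a log2 change of 0.03 (95% interval -0.05 to 0.11, edgeR adjusted p = 0.56). Their transcripts share no run of 50 bases in GENCODE M21, and of the 10 genes only Mia2 shares such runs with another gene. For Mia2, 165 of 7218 such runs, or 2.29%, are also found in other genes.

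Surf4, Mia2 and Mia3 serve the loading and shaping of large cargo carriers. SURF4 is a membrane receptor that gathers lipoproteins at exit sites, and MIA3 and MIA2, also called TANGO1 and TALI or cTAGE5, enlarge those sites. Surf4 (ENSMUSG00000014867, chromosome 2 from 26810052 to 26823940, minus strand) had 397, 380.5, 397 and 390 CPM in Mttp_KO_CM replicates 1 to 4 and 399 CPM in the library without a number. The Mttp_flox_CM libraries had 365, 358, 361, 366 and 356 CPM. The groups did not overlap, with a log2 change of 0.12 (SE 0.025, edgeR adjusted p = 4.0e-04). Surf2, on the opposite strand, overlaps Surf4 by 144 bases and was at 26.4 ± 1.40 CPM in Mttp_KO_CM and 22.2 ± 2.01 CPM in Mttp_flox_CM (SD, n = 5). Surf2 rose too (log2 0.25, SE 0.063, edgeR adjusted p = 0.0024), and with no strand setting given, reads in the overlap cannot be told apart.

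Mia2 (ENSMUSG00000021000, chromosome 12 from 59142585 to 59238369, plus strand) had 469, 469, 471 and 456 CPM in Mttp_KO_CM replicates 1 to 4 and 465 CPM in the library without a number. Values in Mttp_flox_CM were 414, 399, 399, 406 and 414 CPM. The groups were apart and each was tight, with a log2 change of 0.20 (SE 0.024, 95% interval 0.15 to 0.25, edgeR adjusted p = 4.7e-07). The gene has several annotated starts that give a long and a short protein, and the counts pool them. Of 12 annotated protein-coding transcripts, 1 starts near the first window, shown above, 5 near the second and 6 near the third.

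Mia3 (ENSMUSG00000056050, chromosome 1 from 183107682 to 183150894, minus strand) lay on the edge of the threshold in the other direction. In Mttp_KO_CM, Mia3 had 227, 214, 214 and 224 CPM in replicates 1 to 4 and 221 CPM in the library without a number. The Mttp_flox_CM values were 221, 232, 230, 234 and 240 CPM. The groups overlapped through Mttp_flox_CM replicate 1, and the log2 change was -0.07 (SE 0.029, 95% interval -0.13 to -0.01, edgeR adjusted p = 0.053). Under 8 of 21 alternative settings it was called lower, among them without Mttp_flox_CM replicate 1 (log2 -0.09, adjusted p = 0.020) and without Mttp_KO_CM replicate 1 or 4, and adjusted p ran from 0.0036 to 0.17 over all of them. The intervals of Mia2 and Mia3 did not overlap.

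Levels of different genes were compared per gene length, as the FPKM values that the authors deposited (fragments per kilobase of gene, scaled to library size with a further scaling between libraries). The order and ranks rest on the deposited gene lengths, among them 6206 bases for Mttp, 3281 for Surf4 and 11239 for Mia2. Protein-coding transcripts of these 3 genes in GENCODE M21 hold 4361, 3280 and 7218 different runs of 50 bases. Whether other lengths would change the order was not tested. In Mttp_KO_CM the order from high to low was Apob (525 ± 24.0 FPKM, SD, n = 5), P4hb (404 ± 13.1), Sar1b (173 ± 3.92), Mttp (136 ± 3.16), Surf4 (119 ± 2.30), Pla2g12b (52.0 ± 2.53), Mia2 (41.2 ± 0.520), Mia3 (30.6 ± 0.799), Tm6sf2 (19.2 ± 1.02) and Cideb (6.56 ± 1.69). In Mttp_flox_CM, Mttp stood below Surf4, at 89.9 ± 2.80 FPKM against 109.5 ± 1.33 FPKM, and the order was otherwise the same. No neighbours in the Mttp_KO_CM order overlapped in any library, and in the Mttp_flox_CM order only Sar1b (110 to 123 FPKM) and Surf4 (108 to 111 FPKM) did. Among genes tested, Mttp ranked 310 by mean FPKM in Mttp_KO_CM and 443 in Mttp_flox_CM, and Sar1b 235 and 326. Apob ranked 64 in Mttp_KO_CM and 62 in Mttp_flox_CM.

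**Figure D3:**
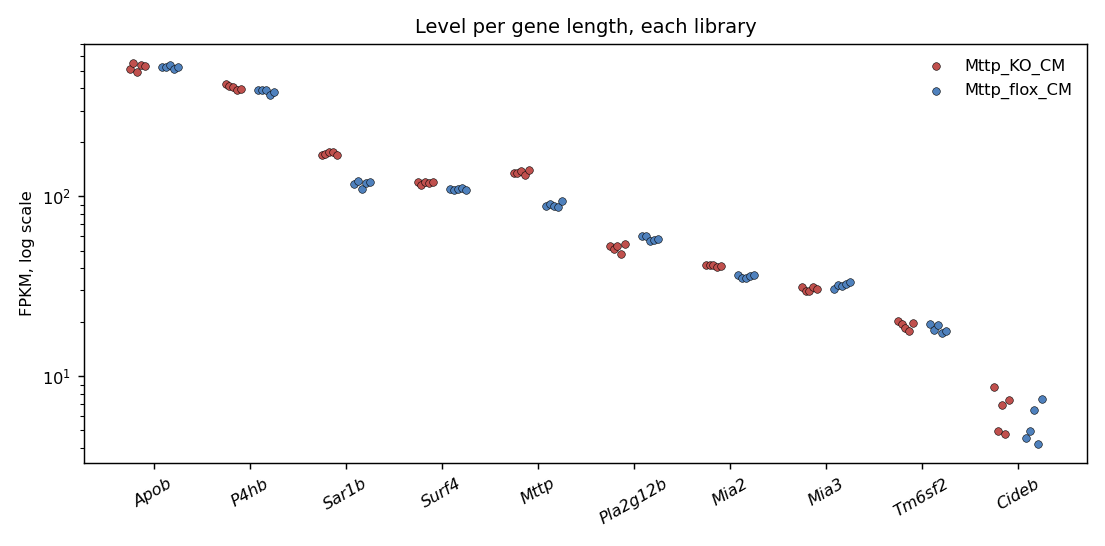
FPKM (log scale) of each gene in each library, Mttp_KO_CM points left of Mttp_flox_CM points for each gene, genes ordered by their mean in Mttp_flox_CM. Mttp is at 131 to 139.5 FPKM in Mttp_KO_CM and at 87.8 to 94.5 FPKM in Mttp_flox_CM. With the deposited gene lengths, Mttp lies above Surf4 in the first and below it in the second.

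Ratios of 2 genes within a library do not depend on the scaling between libraries, and are given here with no test. Mttp had 32.0 to 35.3 FPKM for every 100 FPKM of its partner P4hb in Mttp_KO_CM (33.6 ± 1.32, SD, n = 5) and 22.4 to 24.9 in Mttp_flox_CM (23.4 ± 1.00). Per 100 FPKM of Apob, the Mttp level was 24.3 to 28.1 FPKM in Mttp_KO_CM and 16.3 to 18 FPKM in Mttp_flox_CM. Sar1b had 446 to 525 FPKM per 100 FPKM of Sar1a in Mttp_KO_CM and 328 to 356 FPKM in Mttp_flox_CM. In these 3 ratios every Mttp_KO_CM library was above every Mttp_flox_CM library. Tm6sf2 had 3.29 to 3.98 FPKM per 100 FPKM of Apob in Mttp_KO_CM and 3.37 to 3.70 FPKM in Mttp_flox_CM, and these ranges overlapped.

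**Figure D4:**
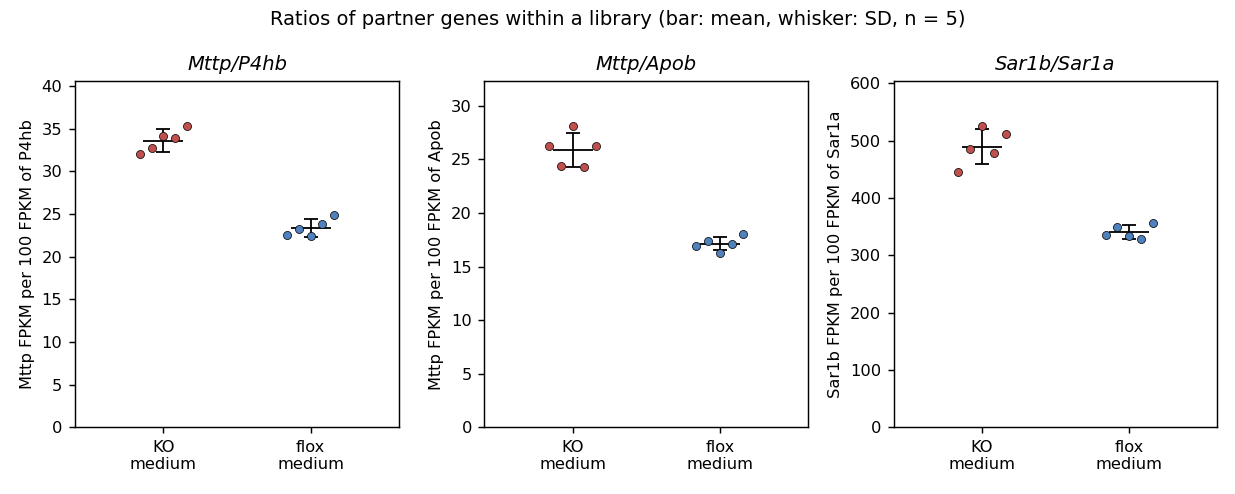
Ratio of the FPKM of 2 genes in each library (vertical axes from 0), Mttp_KO_CM left of Mttp_flox_CM, with the mean (bar) and SD (whisker) of 5 libraries. Mttp per 100 FPKM of P4hb averages 33.6 in Mttp_KO_CM and 23.4 in Mttp_flox_CM, and the groups are apart in all 3 panels.

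The genes with a pattern most like that of Mttp were found by the root mean square difference between gene-centred log2 CPM over the 10 libraries, among 10275 genes at 5 CPM or more with a gene symbol. They were Gk, glycerol kinase (difference 0.030), Tubb2a, a beta tubulin (0.035), Spon2, a secreted matrix protein gene (0.040), Hspd1, a mitochondrial chaperonin (0.044), and Alas1, the first enzyme of haem synthesis (0.044). Gk was at 160 ± 2.91 CPM in Mttp_KO_CM and 109 ± 3.39 CPM in Mttp_flox_CM (SD, n = 5). Sar1b came in place 11 with 0.052, and the next of the 10 genes, Mia2, in place 927 with 0.20. The measure follows the difference between the groups and was given no test.

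Other genes of the pathway were counted by lists. Of 14 genes that supply lipid in the lumen or build it, 7 rose and 2 fell, where 18.2% of all genes tested were called higher and 18.1% lower. The list had a median log2 change of 0.11, and all genes tested one of 0.00. Acsl1, which activates fatty acids, rose to 466 ± 19.9 CPM in Mttp_KO_CM, against 115 ± 4.71 CPM in Mttp_flox_CM (log2 2.02, SE 0.034, edgeR adjusted p = 1.2e-23). Dgat2, which makes triglyceride, rose by 0.72 and Lpcat3, which makes polyunsaturated phosphatidylcholine, by 0.69. The 2 that fell were Tmem41b, a lipid scramblase gene, and Lpin1, a phosphatidate phosphatase gene (log2 -0.19 and -0.16), named after their values were seen, and under 15 of 21 alternatives only 1 gene of the list was called lower.

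Of 23 genes of the coat and export machinery, 5 rose and 3 fell (median log2 0.03), where 36.4% of all genes tested were called in either direction. Sec24a, a cargo-binding coat subunit, rose by 0.32, Tmed2, a cargo receptor, by 0.19, and Preb, the exchange factor that loads SAR1 with GTP, by 0.17. The 3 that fell, named after their values were seen, were Sec16b (log2 -0.25) and Sec16a (log2 -0.11), which organise exit sites, and Stx5a (log2 -0.13), a Golgi fusion protein gene. Among 12 folding helpers 8 rose and the other 4 did not pass (median log2 0.13), where 18.2% of all genes tested were called higher. The chaperones Hsp90b1 and Hspa5 rose by 0.27 and 0.26, and Ero1a, which reoxidises disulfide isomerases, by 0.28.

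**Figure D5:**
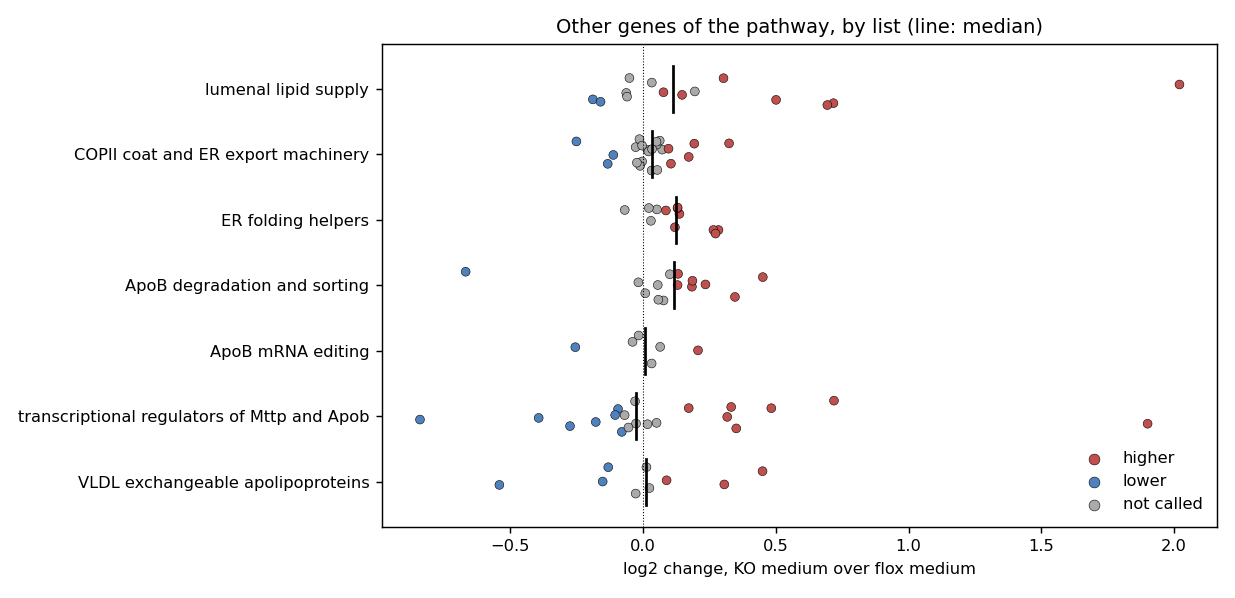
Log2 change, Mttp_KO_CM over Mttp_flox_CM (horizontal axis), of every gene of 7 lists, coloured by its call, with each list's median as a line and random vertical jitter. Medians lie between -0.03 and 0.13, and Acsl1 (2.02) and Creb3l3 (1.90) lie apart to the right.

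Of 14 genes linked to the breakdown and sorting of apolipoprotein B, 7 were higher and 1 lower (median log2 0.12), where 18.2% of all genes tested were called higher and 18.1% lower. The cytosolic chaperones Hspa8 and Hsp90aa1 rose by 0.45 and 0.35. Sort1, the sorting receptor sortilin, was the one that fell, with 13.3 ± 1.40 CPM in Mttp_KO_CM and 21.1 ± 1.50 CPM in Mttp_flox_CM (SD, n = 5, log2 -0.67, SE 0.077, edgeR adjusted p = 1.6e-07). Of 6 genes for editing of Apob mRNA, 1 rose and 1 fell. A1cf, the editing cofactor, rose by 0.21, the RNA-binding protein gene Celf2 fell by 0.26, and Syncrip was not called (log2 0.06). The deaminase gene Apobec1 was at 160 ± 4.57 CPM in Mttp_KO_CM and 162 ± 7.39 CPM in Mttp_flox_CM, a value looked up after the others.

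Of 20 listed regulators of Mttp or Apob, most of them transcription factors and cofactors, 7 rose and 7 fell (median log2 -0.03). Among all genes tested, 18.2% were called higher and 18.1% lower. Creb3l3, a liver factor released from the endoplasmic reticulum membrane, rose to 717 ± 38.4 CPM in Mttp_KO_CM, against 192 ± 11.4 CPM in Mttp_flox_CM (SD, n = 5). Srebf1, the regulator of lipogenesis, rose by 0.72, and Nr1h4, the bile acid receptor gene, by 0.32. Some of those that fell were named after their values were seen. They were the nuclear receptor gene Nr2f1 (log2 -0.84), the coactivator gene Ppargc1a (log2 -0.39) and Hnf4a (log2 -0.08), which encodes a main activator of hepatocyte genes. Nr2f1 and Ppargc1a were scarce, at 1.37 and 4.57 CPM in Mttp_KO_CM and 2.47 and 5.97 CPM in Mttp_flox_CM. Nr2f2 (log2 -0.275) and Foxa2 (log2 -0.178), looked up after the others, also fell, while Ppargc1b, a relative of Ppargc1a, rose (log2 0.351). Of 9 exchangeable apolipoproteins carried by lipoproteins, 3 rose and 3 fell (median log2 0.01), and under 17 of 21 alternatives 2 were called higher. The call nearest the threshold, looked up after the others, was that of Apoa2, a protein of high density lipoprotein (log2 0.09, edgeR adjusted p = 0.046). Apoa5 and Apoa4 rose by 0.45 and 0.31, while Apoa1, the main protein of high density lipoprotein, fell to 4465 ± 112 CPM in Mttp_KO_CM, against 6495 ± 203 CPM in Mttp_flox_CM.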

How the data were processed

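RNA of cultured hepatocytes was selected with poly-T beads and sequenced, per the labels' protocols. The authors deposited raw counts per gene and FPKM values. Per the submitters' processing notes, HISAT2 2.0.5, featureCounts 1.5.0-p3 and build GRCm39 were used. Neither the annotation, nor the strand setting, nor how multiply mapped reads were handled is given in the sources used here. Counts divided by gene length and by deposited FPKM gave 1 library size per library, and the summed counts were 1.01 ± 0.00375 of it in Mttp_KO_CM and 0.982 ± 0.00138 in Mttp_flox_CM (SD, n = 5), so FPKM carried a further scaling between libraries.

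Columns matched labels for 8 libraries. The other 2, 1 per group, carry a number that no label gives and were placed by their letter. No 2 libraries of a group held identical values, and over 20 pairs within a group the chi-square per gene was 2.04 to 4.11, above sampling noise.

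For the tests, edgeR 4.0.16 was run on the counts in R 4.3.3. The function filterByExpr (minimum count 10, minimum total 15) kept 14183 genes with 99.8% of counts. TMM factors were 0.986 ± 0.00447 in Mttp_KO_CM and 1.01 ± 0.00187 in Mttp_flox_CM. Groups were compared by the quasi-likelihood F test, with Benjamini-Hochberg adjustment over all genes. The procedure was also run on simulated data in which only a small part of the genes differed, and nothing here rests on that run. Log2 changes are Mttp_KO_CM over Mttp_flox_CM. The 10 genes and all lists were chosen with earlier results of these data known. Named genes were the 10, the 3 genes of each list with the smallest adjusted p, Sar1a, Kdr, Alb and the 5 genes most like Mttp (log2 CPM with a prior count of 2), and those said to be named or looked up after their values were seen. Genes that overlap one of the 10 and marker genes at 0 were also given. Spp1 and Lipe, the most abundant markers of their lists, were named after the data were seen.

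Alternatives were DESeq2 1.42.0, other scaling, other filters, limma 3.58.1 on counts (voom) and on log2 of FPKM plus 1 or plus 0.1, leaving out libraries and a block on replicate number. Whether replicate numbers pair the libraries was not tested.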

Additional observations from a re-analysis of the deposited data

How the results depend on the processing

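Over 21 alternatives the calls and directions of Mttp (log2 0.55 to 0.61), Sar1b (0.51 to 0.57), Mia2 (0.16 to 0.20), Surf4 (0.08 to 0.13) and Pla2g12b (-0.21 to -0.15) were kept, and Apob (-0.04 to 0.02), Tm6sf2 and Cideb were called under none of them. P4hb lost its call under 14 alternatives, and Mia3 gained one under 8. Over all 21 alternatives P4hb had a log2 change of 0.03 to 0.08 and an adjusted p of 0.024 to 0.40. The count of the 10 genes called lower was 2, with Mia3, under DESeq2, library size alone, RLE factors, the stricter filter (minimum count 50) and voom, and 1 to 2 over the 10 fits that each left out 1 library. The count called higher was 4 or 5. Why these calls moved was not tested.

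Over all genes 1982 to 2586 were higher and 1962 to 3217 lower. With library size alone 38.1% of calls were higher, where TMM scaling gave 50.1%. In the list of lipid supply 1 gene was lower, not 2, under DESeq2, voom, the 3 fits of log2 FPKM, the fit without both libraries that lack a number and the replicate block, and 1 to 2 over the fits without 1 library. Library size alone gave 3 genes of the coat and export list as higher. With log2 of FPKM plus 1 and no filter 1 gene of that list and 1 exchangeable apolipoprotein were lower. The editing list had 0 lower in the 3 fits of log2 FPKM (limma), and 0 to 1 without 1 library, where edgeR gave 1.

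The block on replicate number, over the 8 numbered libraries, gave 2326 genes higher and 2325 lower, and log2 0.60 for Mttp. Deviations of same-numbered libraries from their group means had r of -0.008 to 0.061 over 4 pairs, and those of differently numbered libraries -0.049 to 0.031. The highest r was that of replicate 4 of both groups, and whether the numbers pair the libraries was not tested. Against the fit of all 10 libraries, no list count other than that of lipid supply moved by over 1.5 times. The same 8 libraries without the block also gave 1 gene of that list as lower, so the block did not bring that move. Cideb had 98 to 200 counts per library. Counts of genes called higher in the lists ran from 5 to 7 for lipid supply, 3 to 5 for coat and export, 7 to 9 for folding helpers, 5 to 7 for regulators and 2 to 3 for exchangeable apolipoproteins. Marker sums without the most abundant gene of each list were added after seeing the data.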

Other observations

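Relatives of 3 of the 10 genes, Cideb, Pla2g12b and Tm6sf2, were looked up outside the lists after other values were seen. Cidec, a lipid droplet gene related to Cideb, was at 104 ± 2.33 CPM in Mttp_KO_CM and 40.0 ± 2.91 CPM in Mttp_flox_CM (SD, n = 5, log2 1.38, edgeR adjusted p = 5.4e-18). Cidea, the other relative of Cideb, was scarce and higher, at 2.56 ± 0.337 CPM in Mttp_KO_CM and 1.58 ± 0.415 CPM in Mttp_flox_CM (log2 0.71, edgeR adjusted p = 0.0078). Cideb itself was not called. Pla2g12a, the closest relative of Pla2g12b, was higher, at 37.8 ± 2.14 CPM in Mttp_KO_CM and 29.8 ± 2.72 CPM in Mttp_flox_CM (SD, n = 5, log2 0.34, edgeR adjusted p = 4.6e-05), while Pla2g12b was lower. Tm6sf1, the relative of Tm6sf2, was scarce and lower, at 2.02 ± 0.330 CPM in Mttp_KO_CM and 3.38 ± 0.504 CPM in Mttp_flox_CM (log2 -0.75, edgeR adjusted p = 0.0013).

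In both groups replicate 4 was the lowest library for 4 of the 10 genes, Mttp, P4hb, Tm6sf2 and Cideb. The share of all genes tested with that pattern was not computed, so it cannot be called particular to these genes. For P4hb, replicate 4 had 1115 CPM in Mttp_KO_CM and 1059 CPM in Mttp_flox_CM. Without Mttp_flox_CM replicate 4 the log2 change of P4hb was 0.05 (edgeR adjusted p = 0.18, range over alternatives 0.024 to 0.40).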
